A study of Mus musculus with 6 samples.

Results

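The genes described here are the proteasome genes of the mouse, measured by RNA-seq in 2 kinds of basal cell sorted from esophageal epithelium. They were taken by name, as every gene symbol that starts with Psma, Psmb, Psmc, Psmd, Psme, Psmf or Psmg followed by a digit, without the immunoproteasome genes Psmb8 and Psmb9. The rule found 48 of 24016 genes. By name, 17 of them encode the core particle (8 alpha and 9 beta subunits), 20 the regulatory particle (6 ATPases and 14 non-ATPase genes), 5 the activators and 5 the inhibitor and the assembly factors. The last match, Psmc3ip, is a meiotic recombination factor that shares the prefix only and is no subunit, so it is reported apart. Krt15-positive cells (high CD29, GFP-positive) were compared with Krt15-negative cells (high CD29, GFP-negative), with 3 libraries of each. All mice, per the labels, carried Krt15-CrePR1 and the R26mTomato/mGFP reporter and had received 1 mg of RU486, with sorting 24 h later, so both groups share the alleles, the drug and the time. The Krt15 promoter drives the drug-dependent recombinase, and a cell turns green only after recombination. A cell that expresses Krt15 but did not recombine is therefore sorted as Krt15-negative. Nothing in the labels ties a library to an animal of its own, so the p-values measure only the spread between libraries, which may be technical.

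The proteasome is the protease that degrades ubiquitin-tagged proteins in the cytosol and nucleus. Its barrel-shaped core stacks rings of alpha subunits, which gate the entrance, around rings of beta subunits, some of which carry the cutting sites. A regulatory particle caps the core: its ATPase ring unfolds the substrate and threads it in, and its non-ATPase subunits bind and remove ubiquitin. Activators of the Psme family cap the core in place of that particle and act without ubiquitin. In epithelia that renew continuously, as in the esophagus, basal cells divide and supply the layers above, and protein turnover is a housekeeping task of every such cell.

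Expression is given as FPKM, fragments scaled to transcript length and library size, as the authors deposited it. Detection differed between libraries: 8466, 9194 and 7072 genes reached 1 FPKM in Krt15-positive replicates 1 to 3, against 3247, 6906 and 7934 in Krt15-negative replicates 1 to 3. Krt15-negative replicate 1 stood apart. Median differences of the classes and of the lists other than markers are given with and without it, as are those printed differences of single genes that turn. The spacing of the lowest values corresponds to roughly 27.4 to 34.1 × 1e6 fragments in Krt15-positive and 28.8 to 41.4 × 1e6 in Krt15-negative libraries, so the estimated depth of Krt15-negative replicate 1 lay within the range of the others. The 8 basal keratinocyte markers summed to 3859 to 14090 FPKM in Krt15-positive and 3926 to 11100 FPKM in Krt15-negative libraries, with none at 0. Only Trp63 fell below 1 FPKM, with 0.459 FPKM in Krt15-negative replicate 1. A difference above 0 was found for 7 of the 8, beside 6467 of all 9423 genes tested. Col17a1 alone was higher in Krt15-positive cells without overlap, beside 8.85% of all genes tested, and no basal marker passed adjustment. Krt15 itself had 3350, 9692 and 2420 FPKM in Krt15-positive libraries and 2350, 6784 and 3412 FPKM in Krt15-negative libraries, so the groups overlapped. The 9 fibroblast markers summed to 71.3 to 179 FPKM in Krt15-positive and 176 to 788 FPKM in Krt15-negative libraries, with 4 to 8 of them at 0 in each Krt15-positive library and 0 to 2 in each Krt15-negative library. Without Dcn, the other fibroblast markers summed to 0 to 3.52 FPKM in Krt15-positive and 149 to 331 FPKM in Krt15-negative libraries. Of 8 fibroblast markers tested, 6 were lower in Krt15-positive cells without overlap and with an unadjusted limma p below 0.05, and none passed adjustment. Over all genes tested, 2.44% were lower without overlap and 0.743% were lower with such a p. The 11 leukocyte markers summed to 146 to 7316 FPKM in Krt15-positive and 606 to 1022 FPKM in Krt15-negative libraries, with 3 to 7 and 2 to 7 of them at 0. Lyz2 alone made up 7279 FPKM in Krt15-positive replicate 1, and without Lyz2 the others summed to 36.8 to 118 FPKM in Krt15-positive and 267 to 1022 FPKM in Krt15-negative libraries. Of 9 leukocyte markers tested, 7 had a difference below 0, beside 31.4% of all genes tested. The 5 endothelial markers were at 0 in 5 libraries and summed to 4.03 FPKM in Krt15-negative replicate 3, and the 4 smooth muscle markers summed to at most 9.94 FPKM. The part of these other cells in the differences below was not tested, and in bulk samples fewer cells of a type and less RNA per cell cannot be told apart.

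Nearly all proteasome genes were abundant in both kinds of cell, and none differed past the threshold. Of the 48 genes, 46 averaged at least 1 FPKM over the 6 libraries and were tested. Psma8, the alpha subunit of testis, was listed at 0 in all 6 libraries, and Psmb11, the beta subunit of the thymic cortex, reached at most 0.134 FPKM. Leaving out Psmc3ip, the median of the 45 genes tested was 107, 158 and 112 FPKM in Krt15-positive libraries and 72.7, 148 and 210.3 FPKM in Krt15-negative libraries. The highest levels belonged to core genes: 954 FPKM (Psmb3), 808 FPKM (Psma7) and 845 FPKM (Psmb6) in Krt15-positive replicates 1 to 3, against 1185 FPKM (Psmb6), 805 FPKM (Psmb6) and 1089 FPKM (Psmb3) in Krt15-negative replicates 1 to 3. The order of the genes by level was similar among the libraries other than Krt15-negative replicate 1, with Spearman's rho of 0.86 to 0.96 over the 45 genes in 10 pairs of libraries. In the 5 pairs with Krt15-negative replicate 1 rho was 0.67 to 0.75. These correlations are across genes, which share each library and its depth, and are given as descriptions.

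Among the catalytic beta subunits of the core, Psmb5, which carries the chymotrypsin-like site, had 267, 330.5 and 211 FPKM in Krt15-positive libraries and 251, 205 and 309 FPKM in Krt15-negative libraries. Its means were 269 ± 59.9 FPKM in Krt15-positive and 255 ± 52.1 FPKM in Krt15-negative libraries (SD, n = 3 each), and the groups overlapped fully. Psmb6, with the caspase-like site, had 829, 707 and 845 FPKM in Krt15-positive libraries against 1185, 805 and 936 FPKM in Krt15-negative libraries. The Krt15-negative values of Psmb6 reached higher, but the lowest of them lay inside the Krt15-positive range. Psmb7, with the trypsin-like site, had 47.4, 75.8 and 62.6 FPKM in Krt15-positive libraries and 37.95, 104 and 69.0 FPKM in Krt15-negative libraries, below Psmb6 in every library. Psmb10 replaces Psmb7 in immunoproteasomes, and it had 56.5, 19.3 and 70.0 FPKM in Krt15-positive libraries and 0, 42.5 and 68.6 FPKM in Krt15-negative libraries. It was thus listed at 0 in Krt15-negative replicate 1 only, and its difference was 1.59 on the log2(FPKM + 1) scale (SE 1.51) with that library and -0.34 without it. Psmb8 and Psmb9, the other immunoproteasome genes, stand outside the 48: Psmb8 had 41.4, 3.62 and 20.7 FPKM in Krt15-positive libraries and 0, 0 and 31.3 FPKM in Krt15-negative libraries. Psmb9 had 13.5, 10.4 and 0 FPKM in Krt15-positive libraries and 0.0491, 0 and 65.7 FPKM in Krt15-negative libraries. Psmb8 was thus listed at 0 in 2 Krt15-negative libraries, and Psmb9 was at or near 0 in libraries of both groups.

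Of the other core genes, Psma7, an alpha ring subunit with the highest mean of its class, had 643, 808 and 755 FPKM in Krt15-positive libraries and 327, 784 and 957 FPKM in Krt15-negative libraries. The Krt15-positive values lay between the Krt15-negative ones. Psma3 had the largest positive difference among the alpha genes, with 154, 213 and 240.3 FPKM in Krt15-positive libraries and 0.0257, 259 and 268 FPKM in Krt15-negative libraries. In the last 2 Krt15-negative libraries it was higher than in any Krt15-positive library, so its difference of 2.27 (SE 1.73) turned to -0.40 without Krt15-negative replicate 1. Psma4 had the most negative difference of the alpha genes, -0.73 (SE 0.65), with 89.2, 181 and 173 FPKM in Krt15-positive libraries and 377, 148 and 229 FPKM in Krt15-negative libraries. Psmb4, a structural subunit of the beta ring, had 212, 263 and 239.7 FPKM in Krt15-positive libraries and 514, 206 and 337 FPKM in Krt15-negative libraries, a difference of -0.47 (SE 0.55). In both genes the highest value was that of Krt15-negative replicate 1, the library in which Psma3 and Psmb10 were at or near 0. The adjusted p of Psma3, Psma4 and Psmb10 was 0.793 each and that of Psmb4 0.823 (limma, Benjamini-Hochberg over 9423 genes).

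Within the regulatory particle, the ATPase Psmc5 had the highest mean of the ring, with 120.5, 339 and 316 FPKM in Krt15-positive libraries and 250.2, 339 and 343 FPKM in Krt15-negative libraries. The ATPase Psmc4 had 124, 203 and 156 FPKM in Krt15-positive libraries and 0.279, 242 and 258 FPKM in Krt15-negative libraries. Psmc4 thus repeated the pattern of Psma3: near 0 in Krt15-negative replicate 1, and higher in the other 2 Krt15-negative libraries than in any Krt15-positive library. Its difference was 1.88 (SE 1.66) with Krt15-negative replicate 1 and -0.66 without it. Psmc1 had the most negative difference of the ring, -0.83 (SE 0.75), with 119, 189 and 41.8 FPKM in Krt15-positive libraries and 148, 252 and 144 FPKM in Krt15-negative libraries. Its groups overlapped, and the lowest value was that of Krt15-positive replicate 3. Psmd4, the ubiquitin receptor and the non-ATPase gene with the highest mean, had 219.6, 261 and 143 FPKM in Krt15-positive libraries and 0.247, 221 and 367 FPKM in Krt15-negative libraries. Its difference of 2.12 (SE 1.70) turned to -0.50 without Krt15-negative replicate 1. The lid subunit Psmd3 had 17.9, 56.7 and 28.0 FPKM in Krt15-positive libraries and 0.0164, 78.7 and 53.3 FPKM in Krt15-negative libraries, again with only Krt15-negative replicate 1 near 0.

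Psmd5, Psmd9 and Psmd10 carry the Psmd name but encode chaperones that help assemble the ATPase ring and leave it before the particle is finished. Psmd10, also known as gankyrin, had 67.6, 42.3 and 49.3 FPKM in Krt15-positive libraries and 0, 0 and 30.9 FPKM in Krt15-negative libraries. It was the only one of the 46 genes tested whose groups did not overlap, and it was higher in the Krt15-positive cells. Over all genes tested, 8.85% had groups that did not overlap with the Krt15-positive libraries higher, and 2.44% with them lower, against 1 and 0 of the 46 proteasome genes. Psmd10 was also the only proteasome gene with an unadjusted limma p below 0.05 in the direction of Krt15-positive cells, again 1 of 46, beside 3.18% of all genes tested. No proteasome gene had such a p in the direction of Krt15-negative cells, beside 0.743% of all genes. The difference of Psmd10 was 4.06 on the log2(FPKM + 1) scale (SE 1.42, 95% interval 0.96 to 7.17), with a limma p of 0.0147 before and 0.793 after adjustment. It lay between 3.23 and 5.73 when each library was left out in turn, and 3.23 was the value without Krt15-negative replicate 1 or 2. The size depends on the pseudocount, since 2 libraries are listed at 0: it was 6.27 with a pseudocount of 0.1 and 2.57 with 5. It was 1.84 with library weights. The unadjusted p passed 0.05 without Krt15-negative replicate 1 and without Krt15-negative replicate 3, but not without Krt15-negative replicate 2 or without any of the 3 Krt15-positive replicates. With 3 libraries against 3, an exact 2-sided permutation test cannot give a p below 0.1. No 50-base stretch of the Psmd10 transcripts occurs in another annotated transcript.

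Psmd9 went the other way, with 12.7, 10.4 and 0 FPKM in Krt15-positive libraries and 8.74, 30.7 and 21.1 FPKM in Krt15-negative libraries. Its difference was -1.82 (SE 1.30) and stood at -0.60 without Krt15-positive replicate 3, the library in which it was listed at 0. Psmd5 had 27.2, 67.9 and 34.8 FPKM in Krt15-positive libraries and 0.883, 63.5 and 50.3 FPKM in Krt15-negative libraries, and its groups overlapped. The 3 chaperones of this step thus had no shared direction.

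The activators had similar values in all libraries, apart from Psme4. Psme1 and Psme2, which form an interferon-inducible cap together, had high levels in every library. Psme1 had 184, 170.3 and 134 FPKM in Krt15-positive libraries and 245, 147 and 212 FPKM in Krt15-negative libraries. Psme2 had 594, 517 and 459 FPKM in Krt15-positive libraries and 677, 583 and 885 FPKM in Krt15-negative libraries, with means of 523 ± 67.2 and 715 ± 154 FPKM (SD, n = 3 each). The 2 highest values of Psme2 were Krt15-negative, but the groups overlapped and the difference of -0.44 (SE 0.40) had a limma adjusted p of 0.793. Psme3, which forms a nuclear cap, had 19.2, 37.5 and 32.7 FPKM in Krt15-positive libraries and 33.3, 24.7 and 28.5 FPKM in Krt15-negative libraries, so its groups overlapped fully. Psme4, the large single-chain cap, had 4.13, 1.15 and 3.34 FPKM in Krt15-positive libraries and 0, 0.0108 and 1.73 FPKM in Krt15-negative libraries. Its difference was 1.37 (SE 0.94), and 1.13 without Krt15-negative replicate 1, at the lowest level of the class.

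Psme2b, an intronless copy of Psme2 on another chromosome, had 158, 138 and 121 FPKM in Krt15-positive libraries and 161, 151 and 230.2 FPKM in Krt15-negative libraries. Its ratio to Psme2 was 0.267, 0.267 and 0.263 in Krt15-positive libraries and 0.238, 0.259 and 0.260 in Krt15-negative libraries. The coding sequences of both genes have 717 bases and differ at 5 of them (99.3% identity), and 69.3% of the 50-base stretches of the Psme2b transcript occur elsewhere in the annotated transcripts. Reads from such stretches fit both genes, so the level of Psme2b apart from Psme2 is uncertain. The stretch of coding bases 424 to 543, which holds 3 of the 5 differences, shows how alike they are. Capitals mark the differing bases (GENCODE M21, build GRCm38, counted from the start codon).
Psme2: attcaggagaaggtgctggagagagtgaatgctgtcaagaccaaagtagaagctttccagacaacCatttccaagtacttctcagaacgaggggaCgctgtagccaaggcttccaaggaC
Psme2b: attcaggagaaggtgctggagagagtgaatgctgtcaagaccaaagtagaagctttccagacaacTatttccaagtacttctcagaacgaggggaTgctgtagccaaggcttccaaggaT

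**Figure D1:**
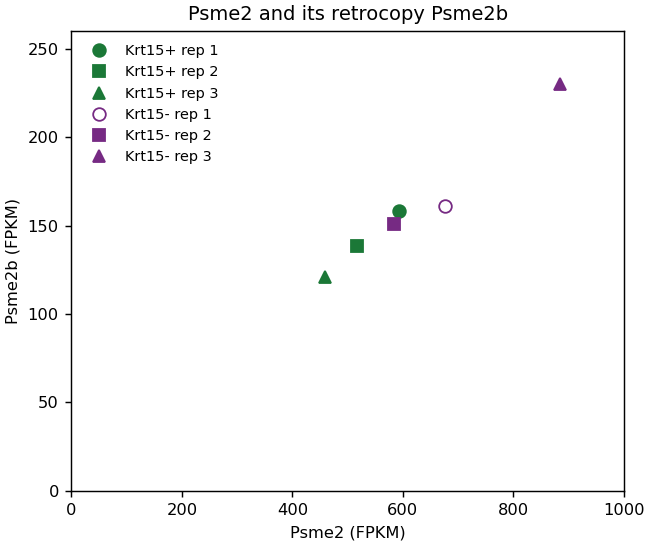
FPKM of Psme2b against FPKM of Psme2, 1 point for each of 3 Krt15-positive and 3 Krt15-negative libraries. The 6 points lie close to a line through the origin, with ratios of 0.238 to 0.267.

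Other proteasome genes also share sequence with copies or overlapping genes. Of the 48, 15 share at least 10% of their 50-base stretches with another annotated transcript, and in 7 of these the closest partner is a pseudogene. After Psme2b and Psme2, the genes that share most are Psmb3 (55.8%), Psma5 (55.4%) and Psmb5 (54.1%), each with a pseudogene as closest partner. Psmb7 shares 28.1% with Nek6 on the opposite strand, and the library kit does not mark strand. How the authors' counting divided such reads is not given in the sources used here, so the levels of these genes are less certain than those of the 23 genes without any shared stretch.

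The inhibitor Psmf1, which can block the core in vitro, had 10.6, 6.48 and 21.5 FPKM in Krt15-positive libraries and 0.00970, 15.5 and 8.09 FPKM in Krt15-negative libraries. Its difference of 1.23 (SE 1.31) was 0.03 without Krt15-negative replicate 1. Psmg1 to Psmg4 encode chaperones that assemble the alpha ring. Psmg1 had 77.0, 102 and 96.96 FPKM in Krt15-positive libraries and 37.8, 113 and 119 FPKM in Krt15-negative libraries. Psmg2, its partner, had 65.7, 43.4 and 4.42 FPKM in Krt15-positive libraries and 0.999, 24.005 and 64.0 FPKM in Krt15-negative libraries. The ranges of both partners overlapped between groups, and their levels parted within a library, as in Krt15-positive replicate 3. Psmg4 had 157, 76.8 and 91.5 FPKM in Krt15-positive libraries and 1.34, 107 and 131 FPKM in Krt15-negative libraries. Psmg3, the partner of Psmg4, had 53.5, 76.0 and 88.2 FPKM in Krt15-positive libraries and 122, 61.1 and 115 FPKM in Krt15-negative libraries. In Krt15-negative replicate 1, Psmg3 was therefore at its highest and Psmg4 at its lowest. Their differences were -0.41 (SE 0.75) for Psmg3 and 1.70 (SE 1.38) for Psmg4, the second of which turned to -0.19 without Krt15-negative replicate 1. Psmc3ip, the gene that is no subunit, had 13.1, 18.7 and 0.189 FPKM in Krt15-positive libraries and 0.354, 0.0274 and 12.1 FPKM in Krt15-negative libraries.

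Core genes were higher than regulatory particle genes in every library. The median of the 15 core genes tested was 249, 309 and 277 FPKM in Krt15-positive libraries and 269, 256 and 337 FPKM in Krt15-negative libraries. The median of the 20 regulatory particle genes was 69.5, 126 and 52.5 FPKM in Krt15-positive libraries and 25.5, 109 and 130.2 FPKM in Krt15-negative libraries. Within a library, the mean log2(FPKM + 1) of the core minus that of the regulatory particle was 1.98, 1.45 and 2.30 in Krt15-positive libraries and 2.53, 1.60 and 1.95 in Krt15-negative libraries. This gap averaged 1.91 ± 0.43 in Krt15-positive and 2.03 ± 0.46 in Krt15-negative libraries (SD, n = 3 each), a difference of -0.12 that is smaller than the spread within either group. The sign of this difference turned with the processing: it was 0.22 with quantile normalization, 0.11 when Krt15-positive replicate 2 was left out and 0.13 when Krt15-negative replicate 1 was. It was -0.33 when Krt15-negative replicate 2 was left out, and 0.02 without the chaperones Psmd5, Psmd9 and Psmd10. Over the 13 core and 14 regulatory particle genes that no library had below 1 FPKM, the difference of the gap was 0.07. Neither is given a test, since the value is a score over chosen genes.

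Core transcripts are also shorter, with a median of 1160 bases against 1613.5 bases for the regulatory particle, and short genes had higher FPKM in these libraries in general. Among single-transcript genes at 1 FPKM or more, the median was 20.4 to 57.8 FPKM below 1000 bases and 3.14 to 5.71 FPKM above 4000 bases in Krt15-positive libraries, and 37.2 to 96.6 and 2.92 to 7.41 FPKM in Krt15-negative libraries. Over transcripts of 1000 to 2000 bases only, the median of 9 core genes was 154, 213 and 239.7 FPKM in Krt15-positive libraries and 72.7, 253 and 268 FPKM in Krt15-negative libraries. The median of 13 regulatory particle genes of that length was 114, 158 and 112 FPKM in Krt15-positive libraries and 68.4, 217 and 210.3 FPKM in Krt15-negative libraries. The core median was above that of the regulatory particle in all 6 libraries, closest in Krt15-negative replicate 1. Within this window the core transcripts were still shorter, with a median of 1183 bases against 1526, and the part of length in the gap was not tested.

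Of the 46 genes, 24 had a difference above 0 and 22 below 0 on the log2(FPKM + 1) scale, with a median of 0.03, while the median of all 9423 genes tested was 0.63. The split was 15 above and 31 below with upper-quartile scaling (median -0.42) and with median-of-ratios scaling (median -0.44), and 9 above and 37 below with library weights (median -0.29). In the same order, 67.4%, 67.4% and 80.4% of the proteasome genes were below 0, beside 37.4%, 38.6% and 43.3% of all genes. The medians of all genes in these settings were 0.48, 0.41 and 0.17. By class, the median difference was -0.09 in the core (7 above 0, 8 below; 0.10 with quantile normalization, -0.55 with upper-quartile scaling, -0.56 with median-of-ratios scaling and -0.27 with library weights) and 0.01 in the regulatory particle (10 above, 10 below; -0.44 with upper-quartile scaling, -0.46 with median-of-ratios scaling, -0.03 with quantile normalization and -0.43 with library weights). It was -0.28 in the activators (2 above, 3 below) and 0.77 in the inhibitor and assembly factors (4 above, 1 below). Summing Psme2 and Psme2b into 1 gene gave -0.14 in the activators. Without Krt15-negative replicate 1 the medians were -0.24 in the core, -0.52 in the regulatory particle, -0.13 in the activators and -0.24 in the inhibitor and assembly factors. Relative to the median of all genes, the 46 genes stood at -0.60. They stood at -0.90 with upper-quartile scaling, at -0.85 with median-of-ratios scaling and at 0.05 with quantile normalization. Dropping every gene that any library had below 1 FPKM left 34 proteasome genes among 2390. The median of these 34 was -0.212, beside -0.0974 for all genes kept, and thus stood at only -0.115 relative to them. By class, the core stood at -0.0174 and the regulatory particle at -0.196. Of the genes kept, 61.8% of the proteasome genes and 56.0% of all genes were below 0. Adjusted limma p-values below 0.05 were found for 0 of the 46 genes and for 0% of all genes tested, and the lowest adjusted p of a proteasome gene was 0.793. At an unadjusted p below 0.05 the count was 1 of 46.

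Without Krt15-negative replicate 1, 38 of the 46 proteasome genes had a difference below 0 and 8 above it, including 13 of 15 core genes and 18 of 20 regulatory particle genes below 0. The median over all genes was then 0.02, with 49.0% of genes below 0, and that of the proteasome genes -0.36, which is -0.39 relative to all genes. With all 6 libraries the share below 0 was 47.8% of the proteasome genes and 31.4% of all genes. None of the 46 passed the threshold without that library either, and the smallest adjusted p among them was 0.884 (limma). Leaving that library out turned the sign of 18 of the 46 differences, 17 of them to below 0, and 28 kept their sign.

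**Figure D2:**
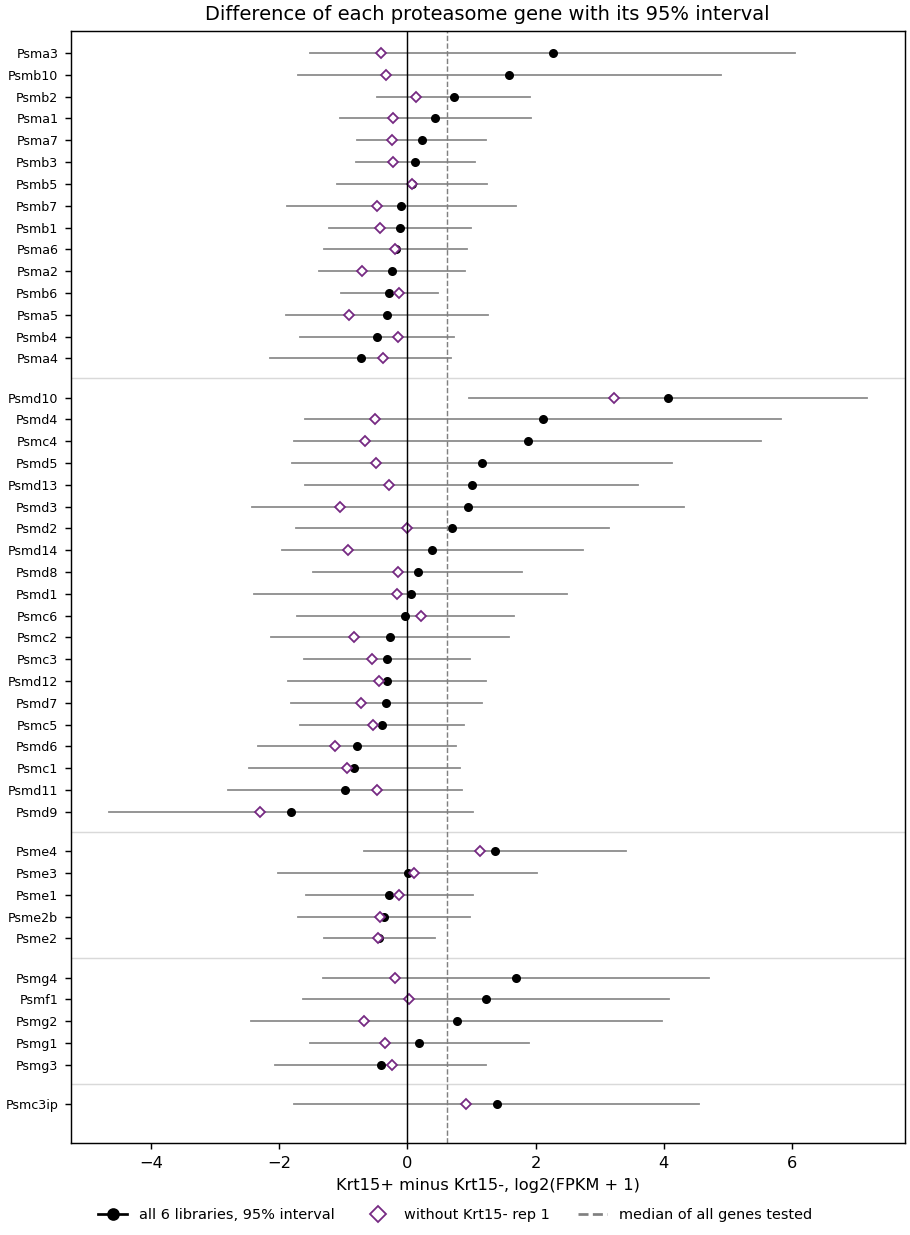
Difference of each proteasome gene, Krt15-positive minus Krt15-negative, in log2(FPKM + 1), with its 95% interval from limma (filled points, 6 libraries) and without Krt15-negative replicate 1 (open diamonds). Of the 46 intervals only that of Psmd10, 0.96 to 7.17, lies apart from 0, and 38 of the 46 diamonds lie left of 0.

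In Krt15-negative replicate 1, 10 of the 45 genes without Psmc3ip (22.2%) were below 1 FPKM: the core genes Psma3 and Psmb10, the regulatory particle genes Psmc4, Psmd3, Psmd4, Psmd5 and Psmd10, the activator Psme4, the inhibitor Psmf1 and the assembly factor Psmg2. Over all genes tested, 66.2% were below 1 FPKM in that library. The 2 sets differ in level: in the other libraries the median was 107 to 210.3 FPKM for the 45 genes. For all genes tested it was 6.13 to 10.6 FPKM, and the part of level in these shares was not tested. In Krt15-negative replicate 2 only Psmd10 and Psme4 were below 1 FPKM, in Krt15-positive replicate 3 only Psmd9, and in the other 3 libraries none, Psmc3ip always left aside. Counting Psmc3ip, the 6 libraries held 16 values below 1 FPKM, and 5 without Krt15-negative replicate 1. In the same library the core gene Psmb6 had its highest value of all, 1185 FPKM, and Psmb4 and Psma4 theirs, 514 and 377 FPKM. In that 1 library, subunits of the same rings were thus at or near 0 (Psma3 and Psmb10) and at the highest value they had (Psma4, Psmb4 and Psmb6). Genes that every cell uses were among these, so a value at 0 is reported only as listed at 0: a failed estimate and an absent transcript cannot be told apart in these values. Of the 46 genes, 34 were below 1 FPKM in no library: 13 of 15 core genes, 14 of 20 regulatory particle genes, 4 of 5 activators and 3 of 5 inhibitor and assembly genes.

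The 91 cytosolic ribosomal protein genes tested had a median difference of -0.49, with 8 above 0 and 83 below. The 8 genes of the CCT chaperonin, which folds actin and tubulin, had a median of -0.04 (4 above, 4 below). The 9 genes of the COP9 signalosome, a relative of the lid of the regulatory particle, had a median of 0.78 (6 above, 3 below). Of all 9423 genes tested, 6467 were above 0 and 2956 below, with a median of 0.63. In the COP9 list the gene with the smallest p was Cops3, with 70.9, 86.7 and 69.3 FPKM in Krt15-positive libraries and 0.30, 24.1 and 82.3 FPKM in Krt15-negative libraries. Without Krt15-negative replicate 1 the medians were -0.09 for the ribosomal protein genes, -0.24 for CCT and -0.26 for COP9. No gene of these lists passed the threshold in limma.

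The genes that act with the proteasome were also below the threshold without exception in limma. Of 10 proteasome-associated genes tested, 4 were above 0 and 6 below, with a median of -0.07. The smallest p among them was that of Shfm1, a small subunit of the lid, with 1340, 1557 and 1183 FPKM in Krt15-positive libraries and 3851, 1418 and 1727 FPKM in Krt15-negative libraries. Of 6 genes for ubiquitin and its activating enzymes, 4 were above 0 (median 0.54), among them the polyubiquitin gene Ubb with 5820, 5515 and 5549 FPKM in Krt15-positive libraries and 939, 5048 and 5860 FPKM in Krt15-negative libraries. Ubb was evenly high except in Krt15-negative replicate 1. Of 10 genes for ubiquitin shuttles and the segregase Vcp with its cofactors, 9 were above 0 (median 0.87), and Ubqln4, a shuttle factor, had 4.74, 9.20 and 3.05 FPKM in Krt15-positive libraries and 0, 1.03 and 0.80 FPKM in Krt15-negative libraries. The groups of Ubqln4 did not overlap, but its limma adjusted p was 0.793. The same holds for Rad23b, another shuttle, with 6.38, 2.21 and 5.27 FPKM in Krt15-positive libraries and 0, 1.39 and 0.170 FPKM in Krt15-negative libraries, and for the ubiquitin-activating enzyme Uba1, with 15.2, 31.1 and 15.6 FPKM in Krt15-positive libraries and 0.101, 13.1 and 10.8 FPKM in Krt15-negative libraries. Of 7 genes for the transcriptional control of proteasome genes, 6 were above 0 (median 0.96). Nfe2l1, the factor that raises proteasome genes when the proteasome is inhibited, had 10.5, 6.77 and 0.768 FPKM in Krt15-positive libraries and 3.74, 4.37 and 0.696 FPKM in Krt15-negative libraries, with overlapping groups. Mafk, a small partner of that family and the gene of smallest p in this list, had 6.32, 7.15 and 16.4 FPKM in Krt15-positive libraries and 0.0246, 5.59 and 3.12 FPKM in Krt15-negative libraries, again without overlap and with an adjusted limma p of 0.793. Of 12 genes for the immunoproteasome and peptide loading, 7 were above 0 and 5 below (median 0.43), and Psmb8, described above, had the smallest p. Of all 9423 genes tested, 6467 were above 0 and 2956 below. Among them, 8.85% had groups that did not overlap with the Krt15-positive libraries higher. The medians of these lists stand beside 0.63 for all genes tested. Without Krt15-negative replicate 1, where the median of all genes was 0.02, they were -0.02 for the associated genes, 0.13 for ubiquitin and its activation, 0.48 for the shuttles, 0.20 for transcriptional control and -0.24 for the immunoproteasome and peptide loading.

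The promoters were read for short letter patterns, since genes of a complex can share control elements. RefSeq promoter windows (build GRCm38.p6, 250 bases before to 50 bases after the start) were found for 40 of the 48 genes, 39 of them without Psmc3ip. In all, 8 patterns were searched on both strands and counted independently where matches overlapped. A gene was counted for a pattern when any of its windows held a match, so the shares below are of genes. TGACNNNGC is the core of the antioxidant response element, the kind of site at which Nfe2l1 acts. It was found in 6 of 39 proteasome genes (15.4%) and in 13.99% of all 27025 genes with a promoter window. CCGGAAG, a letter string typical of ETS factor sites, was found in 14 of 39 (35.9%) and in 9.93% of all genes with a window. It was unevenly spread over the classes: 1 of 13 core genes, 9 of 17 regulatory particle genes, 2 of 5 activators and 2 of 4 inhibitor and assembly genes. GGGCGG, the GC box, was found in 22 of 39 (56.4%) and in 38.2% of all genes with a window, with 5 of 13 core and 13 of 17 regulatory particle genes. CCAAT was found in 13 of 39 (33.3%) and in 41.1% of all genes with a window, with 7 of 13 core and 5 of 17 regulatory particle genes. TATAAA was found in 7.69% of the 39 and 15.7% of all genes with a window. The other 3 patterns were the palindrome of nuclear respiratory factor, the site string of Yy1 and that of Zfp143. Each was in 2 of the 39 genes (5.13%), beside 1.07%, 1.64% and 2.08% of all genes with a window. No test was made of these counts, and a match is a run of letters, not a site in use. The genes with a window were not limited to those expressed in these libraries. The shares therefore do not compare the proteasome genes with other genes of similar level.

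The windows of 4 genes show these patterns, with matches of TGACNNNGC or CCGGAAG on either strand in capitals. Psmb5 stands for the catalytic core (chr14:54617946-54618245, minus strand), Psmd4 for a regulatory particle gene with CCGGAAG (chr3:95042565-95042864, minus strand), Psmd12, a lid subunit, for a gene with both (chr11:107479278-107479577, plus strand), and Psmd10 is the gene whose groups did not overlap (chrX:140956662-140956961, minus strand).
Psmb5: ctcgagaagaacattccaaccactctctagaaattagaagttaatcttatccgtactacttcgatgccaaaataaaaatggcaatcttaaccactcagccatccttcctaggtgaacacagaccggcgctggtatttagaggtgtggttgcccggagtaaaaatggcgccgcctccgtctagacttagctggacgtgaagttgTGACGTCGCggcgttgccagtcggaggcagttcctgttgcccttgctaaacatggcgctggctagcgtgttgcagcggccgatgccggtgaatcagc
Psmd4: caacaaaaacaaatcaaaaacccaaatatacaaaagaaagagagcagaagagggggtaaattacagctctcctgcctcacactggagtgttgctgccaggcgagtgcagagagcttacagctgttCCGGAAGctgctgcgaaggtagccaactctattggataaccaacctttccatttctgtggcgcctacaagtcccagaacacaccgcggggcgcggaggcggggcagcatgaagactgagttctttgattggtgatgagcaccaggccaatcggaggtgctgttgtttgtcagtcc
Psmd12: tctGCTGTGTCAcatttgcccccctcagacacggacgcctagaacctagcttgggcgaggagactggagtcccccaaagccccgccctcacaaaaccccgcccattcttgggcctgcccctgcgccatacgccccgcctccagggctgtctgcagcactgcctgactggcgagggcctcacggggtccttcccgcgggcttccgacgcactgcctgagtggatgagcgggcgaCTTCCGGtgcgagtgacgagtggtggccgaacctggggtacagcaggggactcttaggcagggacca
Psmd10: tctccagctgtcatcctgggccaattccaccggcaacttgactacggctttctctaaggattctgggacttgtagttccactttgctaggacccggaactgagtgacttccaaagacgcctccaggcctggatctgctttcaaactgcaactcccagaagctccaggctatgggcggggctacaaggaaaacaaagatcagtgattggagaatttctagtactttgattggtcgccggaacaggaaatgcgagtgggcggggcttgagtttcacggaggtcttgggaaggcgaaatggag
The match in Psmb5 starts 47 bases before the start, and the CCGGAAG matches start 125 bases before it in Psmd4 and 17 bases before it in Psmd12. The window of Psmd10 holds neither pattern. The groups overlapped for Psmb5, Psmd4 and Psmd12.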

How the data were processed

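RNA was measured in 6 libraries of sorted mouse esophageal basal cells, 3 Krt15-positive and 3 Krt15-negative. The deposited values are FPKM per gene and library as the authors estimated them, in 1 table. The submitters' processing notes name STAR 2.5, Cufflinks 2.2.1, DESeq2 and the build mm9, with no role or order, and nothing on the annotation, the filters or the handling of shared reads is given in the sources used here. Per the labels' protocols, cells went straight into cDNA synthesis (SMART-Seq v4), a chemistry that does not mark strand.

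Of 24043 rows, 27 were gene names turned into dates and were left out, which leaves 24016 genes. Values were taken as log2(FPKM + 1), and the 9423 genes whose mean over the libraries reached 1 FPKM were fitted together with limma 3.58.1 in R 4.3.3 (mean-variance trend, 2-sided, Benjamini-Hochberg adjustment, threshold 0.05). The fit was tested on simulated data with known changes and the same noise for every gene. Noise in the real values differed between genes, so this checked only that the fit was coded correctly. Differences on this scale understate those of low genes. Read counts were not used, so no counting interval is given, and the depths stated are estimates from the steps between low values.

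The genes and the lists were chosen with earlier results of these data known. Values per library are given for the catalytic genes Psmb5, Psmb6, Psmb7 and Psmb10, for the extremes and the highest mean of each class, for genes whose groups did not overlap and for genes below 1 FPKM in any library. From other lists the gene of smallest p is named. Psmg1 and the remaining activators complete their classes, while the alpha, beta, ATPase and non-ATPase genes are not all printed. Transcript lengths, shared 50-base stretches and coding sequences come from GENCODE M21 and promoters from RefSeq, both on GRCm38. They were matched by symbol, and no coordinate was carried between builds. Alternatives covered the pseudocount, the filter on low values, the scaling, library weights, a replicate block and leaving out each library.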

Additional observations from a re-analysis of the deposited data

How the results depend on the processing

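Over the alternatives run, the 14 genes whose differences are printed gave 215 values. Of these, 206 kept their direction, 9 reversed and none passed the adjusted threshold (limma adjusted p 0.586 to 0.9995). The filters on low values and the replicate block cannot change the difference of a gene, so their values kept direction by construction. The count of 206 includes them and overstates how stable the directions were. Without Krt15-negative replicate 1 the differences of Psma3 (-0.40), Psmb10 (-0.34), Psmc4 (-0.66), Psmd4 (-0.50) and Psmg4 (-0.19) reversed, and leaving out each library in turn the highest values were 3.61, 2.72, 3.17, 3.60 and 2.72 in the same order. With library weights those of Psma3 (-0.019), Psmb10 (-0.28), Psmc4 (-0.28) and Psmd4 (-0.24) did. The cause was not tested. Library weights called 8 genes over the whole table and 0 proteasome genes, and the other settings called 0 of either. The median of the activators was -0.75 with upper-quartile and -0.76 with median-of-ratios scaling. The count of proteasome genes at an unadjusted p below 0.05 and higher was 0 with library weights, 0 when genes below 1 FPKM in any library were dropped, which removes Psmd10, and 0 to 2 when each library was left out in turn. The second gene was Psme4, without Krt15-negative replicate 3 (unadjusted limma p 0.0428). The count of lower genes was 1 with quantile normalization (Psmd9), 1 with library weights (Psma2) and 0 to 0 when each library was left out. With a threshold of 0.1 FPKM, 10 values were below it, and without Krt15-negative replicate 1, an alternative chosen after seeing the data, 5 of the 16 values below 1 FPKM were left. Other alternatives chosen after seeing the data moved no class median or gap beyond its spread, but some signs turned. With Psmc3ip in the regulatory particle, the median of that class was 0.05 and the difference of the gap -0.17. Without Psmd5, Psmd9 and Psmd10 the 2 values turned to -0.03 and 0.02. With Psme2 and Psme2b summed into 1 gene, the median of the activators was -0.14. Same-numbered libraries of the 2 groups also share a sample name in the labels, which do not say what the name stands for. They had correlations of 0.13, 0.17 and 0.01 in their deviations over 9423 genes, against -0.16 to 0.03 between libraries of different number. These values do not settle whether the libraries are paired, and the main fit did not pair them. With the replicate block 0 proteasome genes were called. The median difference stayed 0.03, as it must when every replicate number occurs once in each group. With 3 libraries a group and standard errors of 0.35 to 1.73 on the log2 scale for the 46 genes, small differences could not be detected.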
